A study of Mus musculus with 2 samples.

Results

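Expression of 39 genes of macrophages and of dead-cell clearance was examined in TCRαβ+CD8αα+ intraepithelial lymphocytes (IELs), T cells that lie between the epithelial cells of the gut. The genes were chosen by name: 18 macrophage lineage markers, 11 engulfment receptors, 3 bridging factors, the target cell signals *Calr* and *Cd47* with the receptor gene *Sirpa*, and 4 genes of the engulfment machinery. These genes, and the lists set beside them below, were chosen with earlier results of these data known. Counts set beside the share of all genes are therefore not independent of the values. Of the 39, 38 had a probe that could be named through RefSeq, among 20893 named genes on the array, and *Cd68* did not. The 38 genes were read by 48 probes, and 9 of them by more than 1 probe.

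The cells were sorted from the small intestine of C57BL/6 mice of 8 to 12 wk, with both sexes pooled. The control group carried floxed *Rbpj* alleles (Rbpjf/f, here Control), and the other group carried the same alleles with CD4-Cre (CD4-Cre Rbpjf/f, here RFF4). By the labels both groups share the floxed alleles, and no Cre is named for the control group. The study's text differs here and describes the control mice as Rbpj+/+ with CD4-Cre, which cannot be settled from the arrays. CD4-Cre acts in the T cell lineage, so *Rbpj*, the DNA-binding partner of Notch, is targeted in T cells and their descendants and not in macrophages. IELs were freed with EDTA, enriched on Percoll, depleted of CD4+ and TCRγδ+ cells and sorted as TCRβ+ cells without CD4, TCRγδ or CD8β. RNA from several isolations was pooled, and 1 pool per genotype was hybridized to 1 Agilent array of 1 color. No p-value, standard error or replicate check is therefore possible, and every comparison below is between 2 arrays.

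Macrophages remove dying cells in steps that the gene groups follow. A dying cell exposes phosphatidylserine on its surface, which receptors bind directly or through soluble bridging proteins. The receptors signal through ELMO and DOCK proteins to the GTPase RAC1, which reshapes actin around the target. Surface calreticulin promotes uptake, whereas CD47 on a living cell restrains it through SIRPα on the phagocyte. In the gut, resident macrophages of the lamina propria take up dying cells. The study asked how Notch signaling maintains the number of these IELs, and uptake by macrophages was among the processes it examined. The arrays measured the RNA of the sorted cells, not of the macrophages of the tissue.

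Signals are background-subtracted scanner intensities. Levels are log2 signals relative to the 75th percentile of the gene spots of the same array, an intensity of 509.6 on the Control array and 226.6 on the RFF4 array. Differences are log2, RFF4 minus Control. A gene was called measured if it was well above background on both arrays, or if a bound could be set because the brighter array was. Well above background were 57.2% of gene spots on the Control array and 49.7% on the RFF4 array, and 0 were saturated. Because of the scaling, a signal at background on both arrays would read as 1.17 higher in RFF4, so no difference is given for genes above background on neither array. Over probes with many spots, the technical SD of a log2 difference was 0.13. The scanner's own error of a difference was 0.20 for bright genes and larger for dim ones. Both errors leave out the spread between mice and between pools.

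The T cell identity of both pools was visible, with all 17 T cell genes well above background on both arrays. *Cd3e*, a subunit of the T cell receptor complex, had levels of 8.10 and 8.44, and *Cd8a* had levels of 6.24 and 6.17 (Control and RFF4; both genes were singled out for this check after their values were seen). *Rbpj* itself was not lower on the array labelled RFF4. Its brighter probe had levels of 1.96 and 2.28 and its other probe −1.44 and −0.62. The sources used here do not give the position of either probe against the floxed exons, and before scaling the log2 signal of the brighter probe differed by −0.85. The labels are therefore not checked by this gene, and "RFF4" below means the array labelled so.

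Of the 39 genes, 30 were measured: 27 on both arrays and 3 (*C1qa*, *C1qc* and *Stab2*) by a bound, which passed through the RFF4 array alone. *Fcgr1* was well above background on the Control array only and no bound could be set. *Spi1*, *Cd163*, *Mrc1*, *Timd4*, *Havcr1*, *Stab1* and *Cd36* were above background on neither array. Among the 30, 13 were more than 2-fold higher in RFF4 and 2 more than 2-fold lower, where 12.3% and 5.06% of the 13516 named genes measured were. Past 4-fold, 3 were higher and 1 was lower, beside 1.85% and 0.584% of all measured genes. Of the 3, *C1qa* and *C1qc* are bounds that had to be high in RFF4 to be measured, and with normexp correction or spike-in scaling 0 passed 4-fold. Of the 27 well above background on both arrays, 10 were more than 2-fold higher, beside 11.7% of 12958 such genes, and 1 (*Lyz2*) was more than 4-fold higher. The median difference of the 30 was 0.80, and that of all measured genes −0.02. Without the 3 bounds, which had to be high in RFF4, the middle of the remaining 27 differences was 0.46, that of *Mfge8*. Limited in the same way, all genes had a median of −0.00. With the arrays set equal on 8 spike-in controls in place of the 75th percentile, all genes shifted by −1.12. The count of members more than 2-fold higher fell from 13 to 3 (*Lyz2*, *C1qa* and *C1qc*) of 31 measured. Of all genes measured on that scale, 1.39% were more than 2-fold higher, against 12.3% on the 75th percentile scale.

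**Figure D1:**
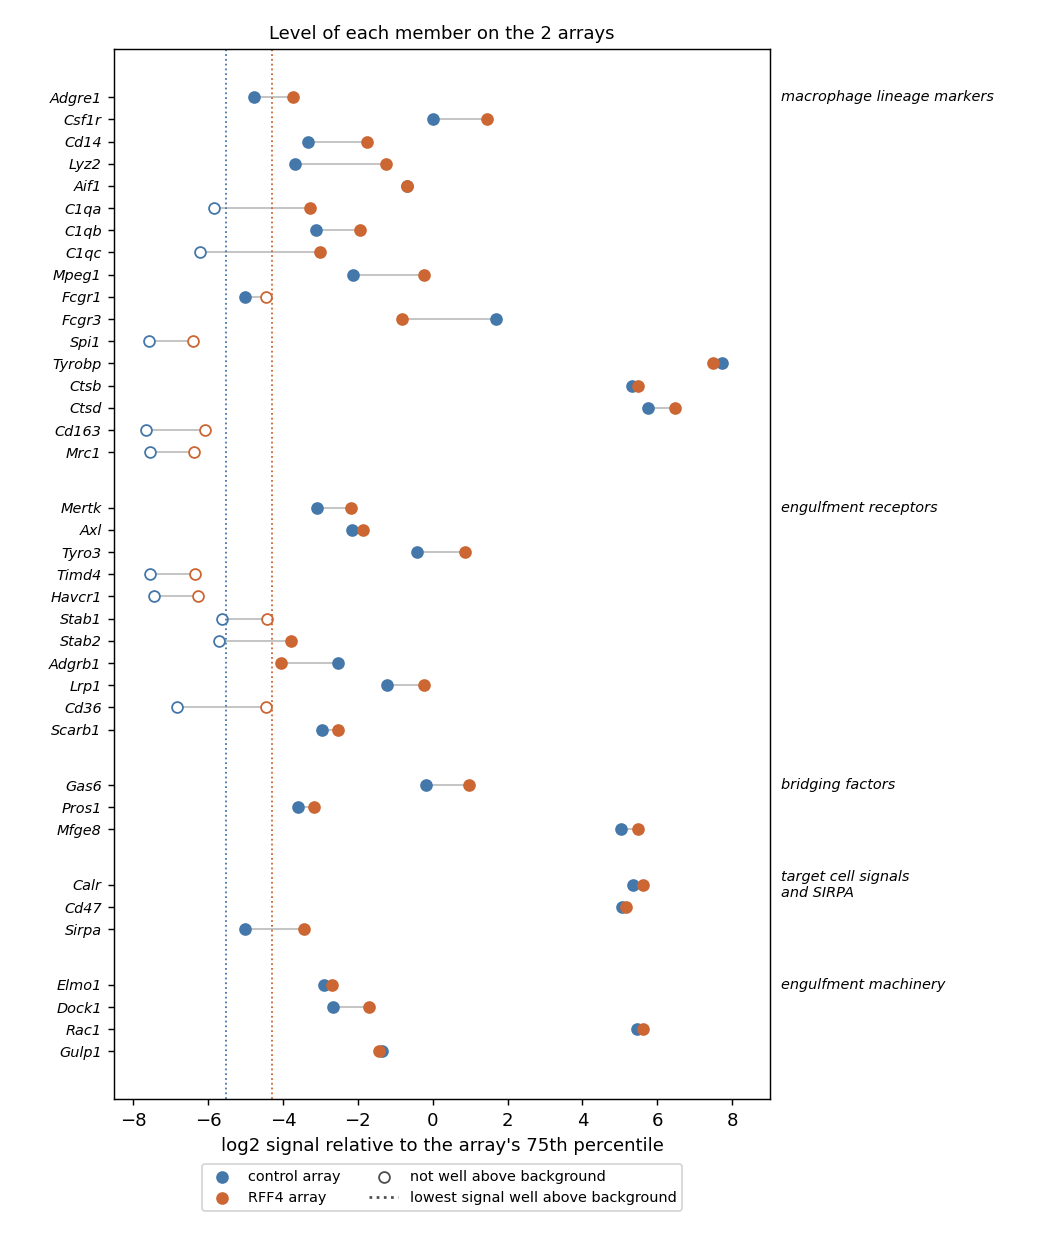
Levels of the 38 genes with a probe on the Control array (blue) and the RFF4 array (orange), as log2 signal relative to the 75th percentile of each array, grouped by role. Open circles were not well above background, and the dotted lines mark the lowest signal well above background, −5.51 on the Control array and −4.29 on the RFF4 array. *Spi1*, *Cd163*, *Mrc1*, *Timd4*, *Havcr1*, *Stab1* and *Cd36* are open on both arrays. Levels of different genes come from different probes and are not comparable.

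Promoter sequences are given for the lineage markers past 2-fold that have a window in the RefSeq table: *C1qb* and *C1qc*, neighbours of *C1qa* on chromosome 4, *Lyz2* and *Mpeg1*, and *Fcgr3*, the marker that was lower. Each window of 300 bases (GRCm38.p6, read along the gene's own strand) runs from 250 bases before a transcript start to 50 bases after it. Capitals mark GAGGAA or its complement TTCCTC, the core bound by PU.1, the macrophage and B cell factor encoded by *Spi1*, and TGGGAA or its complement TTCCCA, the core bound by RBPJ. The motifs do not overlap in these windows.
C1qb, chr4:136886151-136886450, minus strand: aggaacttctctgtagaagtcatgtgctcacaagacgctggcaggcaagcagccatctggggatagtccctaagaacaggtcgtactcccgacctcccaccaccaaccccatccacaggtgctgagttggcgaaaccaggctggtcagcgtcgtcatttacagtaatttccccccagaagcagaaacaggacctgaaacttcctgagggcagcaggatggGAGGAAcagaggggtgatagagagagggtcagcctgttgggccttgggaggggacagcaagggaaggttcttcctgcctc
C1qc, chr4:136892865-136893164, minus strand: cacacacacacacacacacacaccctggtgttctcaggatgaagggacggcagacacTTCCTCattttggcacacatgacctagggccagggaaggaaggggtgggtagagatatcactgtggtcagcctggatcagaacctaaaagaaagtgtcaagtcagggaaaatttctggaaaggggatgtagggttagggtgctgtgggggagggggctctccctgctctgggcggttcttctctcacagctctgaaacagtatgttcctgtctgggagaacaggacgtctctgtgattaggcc
Lyz2, chr10:117282223-117282522, minus strand: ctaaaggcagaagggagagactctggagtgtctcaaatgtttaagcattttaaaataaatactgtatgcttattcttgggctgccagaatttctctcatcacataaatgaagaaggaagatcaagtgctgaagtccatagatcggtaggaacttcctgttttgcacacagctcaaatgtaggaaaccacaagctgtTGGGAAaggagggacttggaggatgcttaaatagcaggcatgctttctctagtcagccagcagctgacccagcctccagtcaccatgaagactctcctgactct
Mpeg1, chr19:12460520-12460819, plus strand: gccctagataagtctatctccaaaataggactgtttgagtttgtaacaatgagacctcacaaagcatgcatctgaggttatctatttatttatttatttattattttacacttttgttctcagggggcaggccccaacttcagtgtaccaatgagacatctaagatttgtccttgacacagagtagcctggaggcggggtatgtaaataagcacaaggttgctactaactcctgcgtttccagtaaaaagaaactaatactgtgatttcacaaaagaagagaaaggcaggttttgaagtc
Fcgr3, chr1:171059354-171059653, minus strand: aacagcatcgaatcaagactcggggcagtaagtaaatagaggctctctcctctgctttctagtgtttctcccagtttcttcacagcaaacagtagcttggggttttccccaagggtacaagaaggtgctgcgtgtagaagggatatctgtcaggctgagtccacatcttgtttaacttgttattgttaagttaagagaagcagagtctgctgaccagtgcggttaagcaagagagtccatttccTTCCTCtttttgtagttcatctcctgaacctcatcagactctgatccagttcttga

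The *C1qb* window holds 1 PU.1 core, 30 bases before the start, and the *C1qc* window 1, 193 bases before it. *Fcgr3* has 2 starts in the table, and the window of the upstream one, shown above, holds 1 PU.1 core 6 bases before the start. The *Lyz2* window holds 1 RBPJ core and 0 PU.1 cores, and the *Mpeg1* window holds neither core. Of all 32851 promoter windows, 28.3% hold a PU.1 core and 25.6% an RBPJ core. Of the 33 windows of the 28 member genes in the table, 14 hold a PU.1 core (42.4%) and 9 an RBPJ core (27.3%). Such short matches describe the letters and do not show that a factor binds.

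The lineage markers held genes that were higher in RFF4, genes close to equal, genes at background and 1 gene, *Fcgr3*, that was more than 2-fold lower. Of 18, 13 were measured and 8 were more than 2-fold higher, beside 12.3% of all measured genes higher and 5.06% lower. *C1qa* and *C1qc* were measured only because they were high in RFF4, and without them 6 of 11 markers were more than 2-fold higher, with a median of 1.04. The median difference of the 13 was 1.17, with values from −2.53 to 2.50, and it was −0.02 when spike-in controls set the scale. Among markers higher in RFF4 and well above background on both arrays, the largest difference was that of *Lyz2*, which encodes lysozyme M of macrophages and granulocytes. Its signal was 40.0 on the Control array and 95.5 on the RFF4 array, a level of −3.67 against −1.25. The difference of 2.42 (scanner error 0.23, 5.36-fold) stayed positive under every setting tried, at 1.30 on the spike-in scale and 1.58 after normexp background correction. *Lyz1*, its near copy, is known from Paneth cells, and whether the *Lyz2* probe also reads it was not tested.

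The 3 genes of complement C1q, which tissue macrophages secrete and which binds dying cells, gave unlike readings. *C1qa* had a signal of 8.97 on the Control array, not well above background, and 23.5 on the RFF4 array, which made it at least 4.71-fold higher. *C1qc*, averaged over 9 spots on the Control array and 10 on the RFF4 array, had a signal of 7.29, also not well above background, and one of 28.5, at least 5.66-fold higher. *C1qb* was well above background on both arrays with nearly the same signal, 59.0 and 59.2. It was 1.17 higher after scaling, as much as the scaling itself adds. The bounds of *C1qa* and *C1qc* dropped below 4-fold after normexp correction, to 1.22 and 1.37 (log2), and on the spike-in scale, to 1.11 and 1.38.

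*Csf1r* encodes the receptor for the growth factors that macrophages need to survive. Its brightest probe had a signal of 512.2 on the Control array and 622.0 on the RFF4 array, a difference of 1.45 (scanner error 0.20). The other probes gave differences of 0.60 and 0.55, and the mean over the 3 probes was 0.86, so that the gene passed 2-fold by its brightest probe only. *Mpeg1*, which encodes the pore-forming protein perforin-2 of phagocytes, had signals of 117 and 193 and a difference of 1.89, and its other probe, with 2.63 and 6.30, was not well above background on either array. *Cd14*, the co-receptor for bacterial lipopolysaccharide, had signals of 50.8 and 67.0 and a difference of 1.57. For the probes used of these 3 genes, the unscaled signal was also higher on the RFF4 array.

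*Adgre1* encodes F4/80, the classical surface marker of mouse macrophages. It was near background on both arrays, with signals of 18.8 and 17.2, and its scaled difference was 1.04 (scanner error 0.37), just past 2-fold. With median scaling (0.87), quantile normalization (0.89) and cyclic loess (0.91) it was under 2-fold. Its other probe had signals of 10.4, not well above background, and 16.6, and the mean over both probes gave 1.45. The sign of the brighter probe turned on the spike-in scale, to −0.08. *Aif1*, the actin-binding protein IBA1 of macrophages, had levels of −0.68 and −0.69, a difference of −0.00. *Fcgr1*, the high-affinity IgG receptor CD64, had signals of 15.8 and 10.3, of which the first alone was well above background.

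The marker that went the other way was *Fcgr3*, the low-affinity IgG receptor CD16, which natural killer cells carry as well as macrophages. Its signal was 1660 on the Control array and 128 on the RFF4 array, a level of 1.70 against −0.82. The difference of −2.53 (scanner error 0.21) made it 5.76-fold lower, and it lay between −3.65 and −2.11 under all settings tried. *Tyrobp*, the adaptor DAP12 that natural killer receptors and macrophage receptors share, had the signals 107616 and 40975 and a difference of −0.22. The lysosomal proteases *Ctsb* and *Ctsd*, which most cells make, differed by 0.15 and 0.70. The summed signal of the lineage markers was 311 times the 75th percentile on the Control array and 320 times on the RFF4 array. That sum is set mainly by the probe of *Tyrobp* and does not describe the other markers.

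*Spi1*, which encodes the factor PU.1 that macrophages depend on, had signals of 2.68 and 2.70, within the range of the negative control spots, whose highest signals were 3.16 and 3.25. *Mrc1*, the mannose receptor CD206, had 2.73 and 2.74. *Cd163*, the hemoglobin scavenger receptor, had 2.52 and 3.33. So these 3 markers of tissue macrophages, each read by 1 probe, were at background on both arrays. Whether those probes can read the transcripts was not tested. Marked well above background on both arrays were 11 lineage markers: *Csf1r*, *Cd14*, *Lyz2*, *Aif1*, *C1qb*, *Mpeg1*, *Fcgr3*, *Tyrobp*, *Ctsb*, *Ctsd* and, with signals of 18.8 and 17.2, *Adgre1*. *C1qa* and *C1qc* were so on the RFF4 array alone and *Fcgr1* on the Control array alone.

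**Figure D2:**
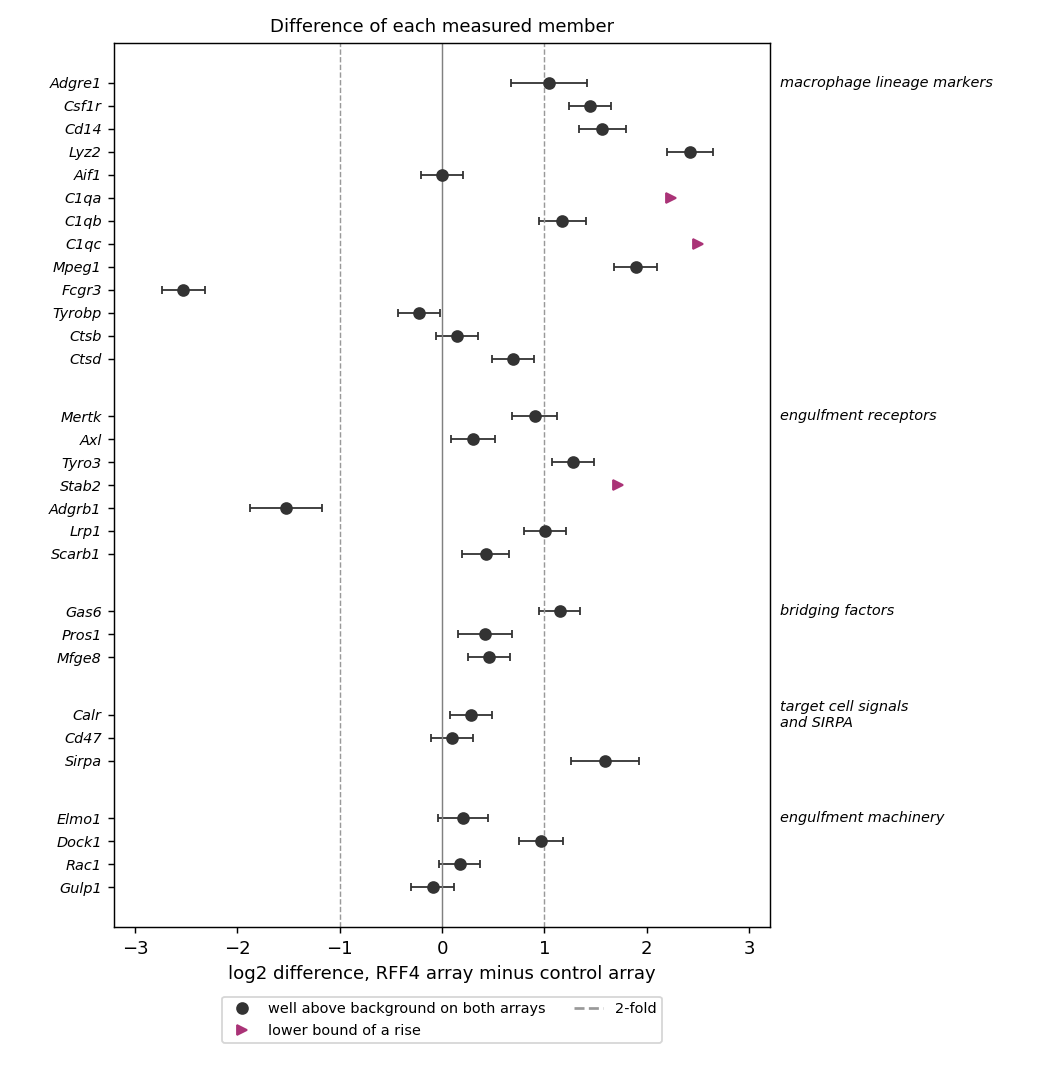
Log2 difference, RFF4 array minus Control array, of the 30 measured genes, grouped by role. Bars are the scanner's error of the difference and leave out the spread between mice, triangles are lower bounds, and dashed lines mark 2-fold. *Fcgr3* at −2.53 and *Adgrb1* at −1.52 lie left of the dashed line and 13 genes lie right of it. Setting the spike-in controls equal would move all genes by −1.12.

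Among the engulfment receptors, 7 of 11 were measured. *Tyro3*, *Stab2* and *Lrp1* were more than 2-fold higher in RFF4 and *Adgrb1* more than 2-fold lower, beside 12.3% and 5.06% of all measured genes, with a median difference of 0.90. *Stab2* was measured only because it was high in RFF4, and without it 2 of 6 receptors were more than 2-fold higher, with a median of 0.67. The TAM receptors TYRO3, AXL and MERTK are kinases that recognise phosphatidylserine through GAS6 and protein S. *Tyro3* had signals of 383 and 414, levels of −0.41 and 0.87 and a difference of 1.28, and its other probe gave 0.79. *Mertk*, the TAM receptor of macrophages, had signals of 59.7 and 49.7 and a difference of 0.90 (scanner error 0.22). *Axl*, the TAM receptor that inflamed dendritic cells carry, had 114 and 62.6 and a difference of 0.30. Each TAM receptor was therefore read above background in both pools, with *Tyro3* alone past 2-fold.

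Stabilin-2, encoded by *Stab2* and known from sinusoidal endothelium, takes up phosphatidylserine-bearing cells. Its signal was 9.81 on the Control array, not well above background, and 16.4 on the RFF4 array, at least 3.29-fold higher. *Lrp1*, a large endocytic receptor that acts with calreticulin, had signals of 218 and 194 and a scaled difference of 1.00 (2.01-fold). That difference was under 2-fold with median scaling (0.83), normexp correction (0.79), quantile normalization (0.98) and in the deposited normalized table (0.99). It turned to −0.12 on the spike-in scale. *Scarb1*, the scavenger receptor SR-BI of enterocytes and other cells, differed by 0.43. Just inside the 2-fold threshold lay *Lrp1* and *Adgre1* and just outside it *Dock1* (0.97) and *Mertk* (0.90), and these 4 differences lay closer together than the scanner's error of any of them.

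*Adgrb1* encodes BAI1, a receptor that binds phosphatidylserine directly and signals through ELMO1. Its brighter probe had a signal of 88.2 on the Control array and 13.7 on the RFF4 array, a difference of −1.52 (scanner error 0.35, 2.87-fold lower). Its other probe was not well above background on either array, and after normexp correction the difference was −0.02. The phosphatidylserine receptors TIM-4 and TIM-1 (*Timd4*, *Havcr1*) had signals between 2.74 and 2.96 on both arrays, in the range of the negative controls. *Stab1*, the paralog of *Stab2*, had 10.3 and 10.6, and *Cd36*, a scavenger receptor that works with thrombospondin, had 4.52 and 10.4. None of these 4 genes was well above background on either array.

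The bridging factors were all measured, with a median difference of 0.46. *Gas6*, the ligand of all 3 TAM receptors, had signals of 453 and 446 and levels of −0.17 and 0.98, a difference of 1.15 (2.22-fold). It was under 2-fold with median scaling (0.97), normexp correction (0.93) and spike-in scaling (0.02). *Pros1*, which encodes protein S, had signals of 42.0 and 25.0 and a difference of 0.42. *Mfge8*, the bridge between phosphatidylserine and αv integrins, had signals of 16604 and 10154.5 and a difference of 0.46. Over receptors and bridging factors together, 10 of 14 genes were measured and the median difference was 0.68, or −0.44 on the spike-in scale. The unscaled signals of *Gas6*, *Lrp1* and *Mertk* were lower on the RFF4 array.

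The signals a target cell shows had small differences on the 75th percentile scale. On the spike-in scale they read lower in RFF4, at −0.84 for *Calr* and −1.03 for *Cd47*. The median of all measured genes on that scale was −1.10, lower than either. *Calr*, encoding calreticulin, had levels of 5.34 and 5.63 and a difference of 0.28. *Cd47*, the signal that restrains uptake, had levels of 5.06 and 5.16 and a difference of 0.10, and its other probe gave 0.08. The difference of *Cd47* was within the scanner's error and under the technical SD of 0.13. *Sirpa*, the receptor for CD47 on phagocytes, was near background on both arrays with signals of 15.7 and 21.0. Its difference was 1.59 (scanner error 0.34, 3.02-fold), or 0.47 on the spike-in scale.

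The engulfment machinery acts in many cell types and had a median difference of 0.19, with 0 of 4 genes past 2-fold. Of all measured genes, 12.3% were more than 2-fold higher and 5.06% lower, and 4 genes are too few to tell apart from those shares. *Rac1*, the GTPase at the end of the pathway, had levels of 5.45 and 5.62 and a difference of 0.17, and its other probe gave 0.25. *Elmo1* and *Dock1*, which together activate RAC1, differed by 0.21 and 0.97. *Gulp1*, an adaptor of engulfment receptors, differed by −0.09. Signals of the target cell, *Sirpa* and machinery together had a median of 0.21 over 7 genes, which was 0.03 with median scaling and −0.92 on the spike-in scale.

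Dim genes as a class read higher in RFF4, so the members were set beside genes of like mean level. Of 1803 measured genes with a mean level below −3, 28.6% were more than 2-fold higher and the median was 0.35, and 5 of the 7 members there were, with a median of 1.59. Between −3 and 0, 17.3% of 3580 genes were and the median was 0.04, against 5 of 12 members and a median of 0.94. At 0 and above, 6.57% of 8133 genes were and the median was −0.06, against 3 of 11 members (*Csf1r*, *Tyro3* and *Gas6*) and a median of 0.28. *C1qa*, *C1qc* and *Stab2*, in the lowest class, could enter only through a high RFF4 signal. Among genes well above background on both arrays in that class, 2 of 4 members were more than 2-fold higher, with a median of 0.73, beside 28.8% of 1249 genes and a median of 0.54.

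**Figure D3:**
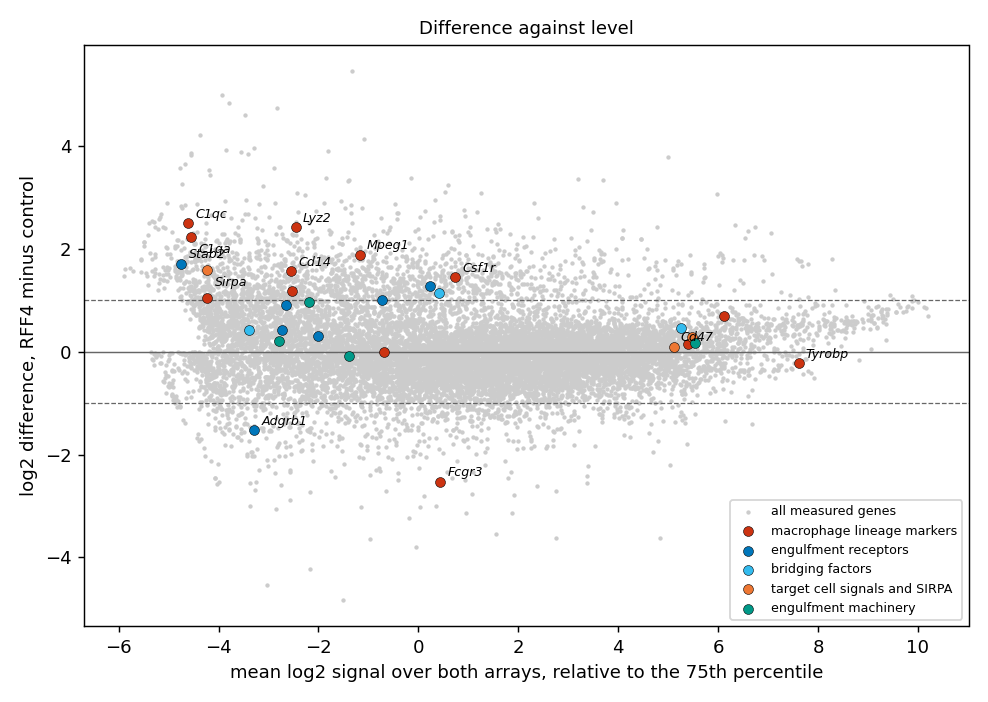
Log2 difference, RFF4 array minus Control array, against the mean level over both arrays for all 13516 measured genes (gray) and the 30 members by role (color). Dashed lines mark 2-fold. Members past 2-fold lie mostly at low levels, where more of all genes are also higher, 28.6% below a level of −3 against 6.57% at 0 and above. On the spike-in scale every point moves by −1.12.

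Other genes of macrophages, from a list of 36 that the members do not hold, were read beside them. Of 24 measured, 9 were more than 2-fold higher and 1 was lower (37.5% and 4.17%, beside 12.3% and 5.06% of all measured genes), with a median of 0.77. *Msr1*, named here as the bound among them, had to be high in RFF4 to be measured, and without it 8 of 23 were more than 2-fold higher, with a median of 0.62. Of the list, 11 were above background on neither array. *Cx3cr1*, the fractalkine receptor of intestinal macrophages, was the highest, at levels of −4.68 and −1.10 (3.57). *Lilrb4a*, an inhibitory receptor, was the lowest at −1.51. Of 46 other engulfment genes, 38 were measured, 10 were more than 2-fold higher and 3 lower (26.3% and 7.89%), and the median was 0.22, or 9 of 37 and 0.18 without the bound of *Sirpb1a*, named for that. Past 4-fold were *Cd93*, a C1q receptor-like protein (2.76), and *Scarf2*, a scavenger receptor (−2.13). All 30 lysosome and phagosome genes were measured, 3 were more than 2-fold higher and 1 lower (10% and 3.33%, under the shares of all measured genes), and the median was 0.04. *Lgmn*, a protease abundant in macrophages, was 2.61 higher, and *Ctsl* was the lowest at −1.41.

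Lists of markers of other cell types had positive medians as well, with all measured genes higher in RFF4 for epithelium and MHC class II and some genes lower in each of the others. Of 19 epithelial genes, 17 were more than 2-fold higher, beside 12.3% of all measured genes. Their differences ran from 0.31 for *Cdh1* to 1.89 for *Apoa1*, with a median of 1.51. Their summed signal was 237 times the 75th percentile on the Control array and 718 times on the RFF4 array. Of 7 genes of MHC class II, which macrophages, dendritic cells, B cells and gut epithelium can express, 6 were measured. *Ciita*, named here as the other, was well above background on the Control array only. Of the 6, 5 were more than 4-fold higher, beside 1.85% of all measured genes: *Cd74* (3.37), *H2-Aa* (2.95), *H2-Ab1* (2.89), *H2-Eb1* (2.38) and *H2-DMb1* (2.33). The lowest was *H2-DMa* (0.77). Their summed signal was 18.9 on the Control array and 113 on the RFF4 array.

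Among granulocyte and mast cell genes, 9 of 14 measured were more than 2-fold higher, beside 12.3% of all measured genes. *Epx* and *Fcer1a*, named here as the 2 bounds among them, had to be high in RFF4 to be measured, and without them 7 of 12 were, with a median of 1.69. Past 4-fold, beside 1.85% of all measured genes, were the mast cell proteases *Mcpt2* (2.65), *Mcpt1* (2.43) and *Cpa3* (2.09), the neutrophil and monocyte genes *S100a8* (2.69) and *S100a9* (2.23), and the eosinophil gene *Prg2* (2.42). With the spike-in shift of −1.12, none of these would pass 4-fold. *S100a8*, *Prg2* and *Cpa3* were dim on the Control array, with signals of 18.8, 18.1 and 30.4. The median of the 14 was 1.75, with 11 genes higher and 3 lower. The lowest was *Kit* (−1.46), and the neutrophil genes *Ltf* (−0.86) and *Mpo* (−0.51), named after their values were seen, were the other two. The list of B and plasma cells had 6 genes measured, 5 higher and 1 lower, and a median of 1.73, with 4 more than 2-fold higher. Of these, *Mzb1* (2.15) and *Fcrla* (2.05) passed 4-fold, and *Cd79b* was the lowest of the list at −0.26. Of 7 dendritic cell genes measured, 4 were higher and 3 lower, from −0.72 for *Fscn1* to 1.47 for *Cd24a*, with a median of 0.41. Of 6 stromal and endothelial genes measured, 4 were higher and 2 lower, from −1.03 for *Pecam1* to 1.86 for *Dcn*, with a median of 1.11. The spike-in shift of −1.12 is larger than either median. T cell genes had a median of 0.35, from −0.46 for *Ptprc* to 3.80 for *Thy1*, with *Cd2* at 2.22. The part of these other cells in the levels of the members was not tested. In pooled RNA, more cells of a type and more RNA per cell cannot be told apart.

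**Figure D4:**
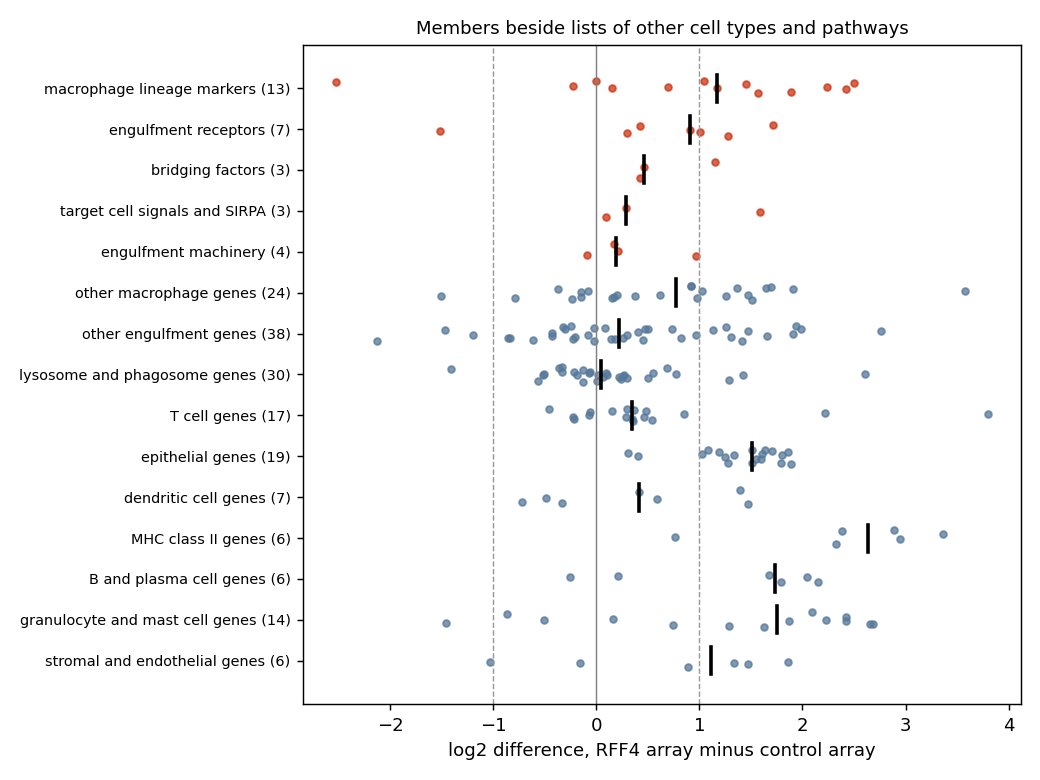
Log2 difference, RFF4 array minus Control array, of each measured gene, for the 5 member groups (red) and 10 other lists (blue), with the number measured in brackets and the median as a black bar. Macrophage lineage markers have a median of 1.17, epithelial genes 1.51, MHC class II genes 2.63 and T cell genes 0.35. On the spike-in scale all genes move by −1.12.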

How the data were processed

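RNA of TCRαβ+CD8αα+ IELs was measured on 2 Agilent SurePrint G3 Mouse GE arrays, 1 per genotype, on the same slide and from the same scan. Per the file headers and the submitters' processing notes, the deposited intensity values come from Agilent Feature Extraction 10.7.1.1, which subtracted the background of each spot and did not scale between arrays. A deposited table of normalized values, centered per probe, was used as an alternative only. The paper names GeneSpring for it.

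Spots marked as controls or outliers were dropped, spots of a probe were averaged, log2 was taken and the 75th percentile over 59305 gene spots was subtracted (8.99 for Control, 7.82 for RFF4). A probe counted as well above background when 50% or more of its spots carried that mark. Of 55679 probes, 27509 were named by accession and 23 by symbol through RefSeq (GRCm38.p6), 1641 accessions were unmatched and 26506 probes had neither. The brightest probe stood for a gene. If the dimmer array was not well above background, the bound was taken against its own signal there or, if higher, against the dimmest signal that was. Bounds under 1-fold were dropped.

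Every member is named. Genes outside the members could be named only if a list holds them and they changed more than 4-fold or were highest or lowest in it, with exceptions stated. Members and lists were chosen with earlier results of these data known. With 1 array per group, no test was run and the array number limits the precision. The alternatives were median scaling, quantile normalization, cyclic loess, 8 spike-in controls set equal, normexp correction (offset 50), the normalized table, the mean over probes, a filter that asks both arrays to be well above background, neither filter nor bound, and outlier spots kept. The steps were tested on simulated data. Python 3.11.15, numpy 2.4.6, pandas 2.3.3, matplotlib 3.10.9, R 4.3.3 and limma 3.58.1 were used.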

Additional observations from a re-analysis of the deposited data

How the results depend on the processing

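No paired analysis was possible because each genotype has 1 array, and for the same reason no replicate could be left out. Scaling decided most. With the spike-in controls set equal, all genes shifted by −1.12, and the median of all measured genes was −1.10. Then 3 members were more than 2-fold higher (13 as reported), beside 1.39% of all measured genes (12.3%). At the same time 6 fell below the opposite threshold (2), and 0 were past 4-fold upward (3). The medians became −0.0158 for lineage markers (1.17), −0.44 for engulfment receptors and bridging factors (0.68) and −0.92 for target cell signals and machinery (0.21). *Adgre1* turned to −0.0814 and *Lrp1* to −0.12, and 11 of the 13 members still read higher. Median scaling shifted all genes by −0.18 and gave medians of 1.00, 0.51 and 0.0305. 9 of the 13 then passed 2-fold, without *Adgre1*, *C1qb*, *Gas6* and *Lrp1*, beside 9.65% of all measured genes. Normexp correction left 1 member lower by over 2-fold and 0 higher by over 4-fold. With it 11 of the 13 were past 2-fold, without *Gas6* and *Lrp1*, beside 9.22% of all measured genes. Among genes well above background on both arrays, 1 was more than 4-fold higher, and the medians were 1.04 for lineage markers and 0.46 for receptors and bridging factors. With no filter and no bound, 20 of 38 members passed 2-fold, beside 30% of all named genes, whose median was 0.25. The median of receptors and bridging factors was then 1.08, since genes at background count in that setting. Quantile normalization, loess, the normalized table, the mean over probes and outlier spots kept gave counts within 1.5 times those reported. In that order 11, 12, 12, 12 and 13 of the 13 were still past 2-fold, beside 11.3%, 12.2%, 12.1%, 12.1% and 12.3% of all measured genes. Quantile normalization lost *Adgre1* and *Lrp1*, loess *Adgre1*, the normalized table *Lrp1* and the mean over probes *Csf1r*. Dim signals limit the lowest genes, since median signal over background was 9.47 on the Control array and 5.78 on the RFF4 array.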
